A study of Mus musculus with 2 samples.

Results

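The genes of cornification and of the desmosome were followed across a pair of microarrays that set stromal cells of the mouse fetal thymus in reaggregation thymus organ culture (RTOC) against such cells in flat 2D culture. Members were taken by gene name: the small proline-rich (Sprr), late cornified envelope (Lce), S100a, desmoglein (Dsg), desmocollin (Dsc), plakophilin (Pkp) and stefin (Stfa, Csta, 2010005H15Rik) families, and Ivl, Lor, Flg, Dsp, Jup, Evpl, Ppl and Sfn. The names matched 75 of 41174 probes other than controls, and 55 of 27962 gene names. One of the 55, Cstad, was matched by the first letters of its name alone and is no stefin, which leaves 54 genes of the families meant.

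Cornification turns the outer cells of a stratified epithelium into flat, dead sheets. Involucrin, envoplakin and periplakin are laid down beneath the plasma membrane, loricrin and small proline-rich proteins are crosslinked onto them by transglutaminases, and desmosomes, which tie the keratin filaments of neighbouring cells together, are built into the finished envelope. In the thymus, medullary epithelial cells that reach the last stages of their life, and the Hassall's corpuscles that they form, express members of the same set.

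Both arrays compared cells of C57BL/6 fetal thymus lobes that had been kept in organ culture with 1.35 mM deoxyguanosine, an agent that removes haematopoietic cells, then dispersed and plated. Lobes of stage E14.5 had 8 days and lobes of stage E15.5 had 9 days of organ culture, and RNA was taken 72 h after plating, either from a culture dish (2D culture, Cy3) or from packed cells on a membrane (RTOC, Cy5). The dyes were not swapped, and both arrays lay on the same slide, so that a preference of a probe for a dye cannot be told apart from the culture. Nor can an effect of stage be told apart from that of the array or of the days in organ culture. The design names the arrays as independent experiments, and each gave 1 replicate (2 in all) of the RTOC over 2D ratio. The cells of these cultures were not sorted by the methods, so a signal belongs to the whole stroma, and fewer cells of a type cannot be told apart from less RNA per cell.

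The labelled tissue was checked on its markers. All 8 thymic epithelial genes listed (Foxn1, Psmb11, Ccl25, Dll4, Ly75, Prss16, Cd83, Tbata) were well above background in all 4 channels, and all 8 were called higher in RTOC, against 16.6% of all genes tested. Between 53.1% and 60.9% of all probes were well above background in a channel, as the scanner software marks them. Values below are normalized signals in arbitrary units of a single probe per gene, the brightest, and log2 ratios of RTOC over 2D culture, which are positive where RTOC was higher. A gene was tested where each array had at least 1 of its channels well above background, and was called at an adjusted p of 0.05 in limma. The brightness of a probe depends on its sequence, so levels are not compared between genes, and a signal summed over a list is weighted to its brightest probes.

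Of the 55 member genes, 39 were tested, 33 were well above background in all 4 channels, and 9 were below it in all 4. No spot of a member was saturated. In limma 6 members were called higher in RTOC (15.4% of those tested, against 16.6% of all 16133 genes tested) and 9 were called lower (23.1%, against 12% of all genes). The genes called higher were Dsp, Pkp4, S100a8, S100a9, Sprr2a and Stfa3, and those called lower were S100a6, Pkp2, Dsg3, Ivl, Sprr1a, S100a10, Ppl, Sprr2j and Evpl. The other 24 tested members were not called. At least 2-fold higher on both arrays were 5 members (12.8%, against 12% of all genes), and at least 2-fold lower on both were 7 (17.9%, against 8.53%). The median of the mean log2 ratio was -0.14 over the tested members and 0.05 over all genes tested. All 15 calls were lost in limma when dim probes were not filtered, and with the methods' t-test once it was adjusted by Benjamini-Hochberg. The share of all genes called under these settings is not given here, so the loss is no result about the members.

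**Figure D1:**
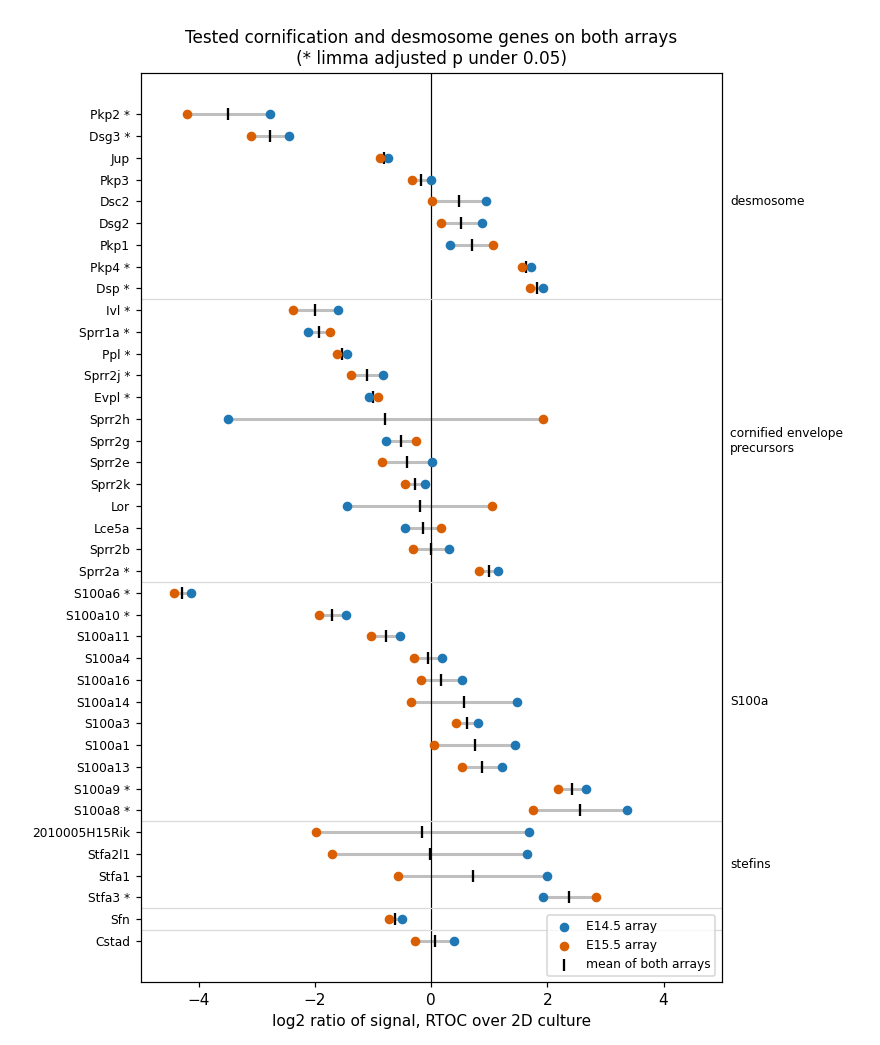
Log2 ratios of signal, RTOC over 2D culture, of the 39 tested members, by role. Blue points are the E14.5 array, orange points the E15.5 array, black ticks their mean, and a star marks a limma adjusted p under 0.05. The members called higher or lower, such as Dsp and S100a6, lie on 1 side of 0 on both arrays, whereas Lor, Sprr2h, Stfa2l1 and 2010005H15Rik span it widely.

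The desmosome genes moved apart. Desmoplakin (Dsp), the plaque protein that holds keratin filaments, and plakophilin 4 (Pkp4), an armadillo protein of cell junctions, rose in RTOC, while plakophilin 2 (Pkp2), another armadillo protein of the plaque, and desmoglein 3 (Dsg3), a cadherin of basal keratinocytes, fell. Of 15 desmosome genes 9 were tested, and the median of their mean log2 ratios was 0.47 by the brightest probes. That median takes Dsg2 at 0.52, whereas its other tested probes had -0.69, -0.14 and -0.15. The sign of the median therefore depends on the Dsg2 probe, and no direction was set for the group. The brightest probe of each of the 9 had the same sign on both arrays, that of Pkp3 being close to 0 at E14.5.

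For Dsp, the signal at E14.5 was 6725 in 2D culture and 25569.6 in RTOC, and at E15.5 it was 12332 and 40218. Both RTOC signals were thus above both 2D signals, and Dsp was 3.52-fold higher in RTOC (mean log2 ratio 1.82, SE 0.25, limma adjusted p = 0.00685). All 4 probes of Dsp were called higher, with mean log2 ratios from 1.11 to 1.82. The Pkp4 signal went from 2113 to 6944 (E14.5) and from 2341 to 6901 (E15.5), close to equal on the arrays. Its mean log2 ratio was 1.64 (SE 0.25, limma adjusted p = 0.00894), and the other probe of Pkp4 had a mean of 1.17 and was also called.

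Pkp2 had the widest gap among the desmosome genes. Its signal was 4669 in 2D culture and 681 in RTOC (E14.5), and 10656 and 577 (E15.5), so that it was 11.2-fold higher in 2D culture (mean log2 ratio -3.49, SE 0.39, limma adjusted p = 0.00383). The Dsg3 signal was 288 and 451 in 2D culture and 52.8 and 52.5 in RTOC, where it was not well above background on either array. Dsg3 was therefore given as at least 1.51-fold higher in 2D culture, and limma's adjusted p on the processed signals was 0.0031. Such a bound was taken after normexp background correction and loess, with a dim signal put at its own value or at the lowest signal well above background, whichever was higher. For Dsg3 its own value was the higher on both arrays, so the bound is the fold on that scale (mean log2 ratio -0.59, not called there, limma adjusted p = 0.0583) and not a separate estimate. A second Dsg3 probe was below background in all 4 channels.

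The other plaque proteins gave smaller ratios. Plakoglobin (Jup), which links the cadherins to desmoplakin, had log2 ratios of -0.74 and -0.88 and missed the threshold (limma adjusted p = 0.0625), although it was called with both channels required to be well above background. Pkp1, the plakophilin of the upper epidermal layers, had 0.33 and 1.07 (limma adjusted p = 0.13), and Pkp3 had -0.004 and -0.34 (limma adjusted p = 0.648). The widely expressed cadherins Dsc2 (0.94 and 0.01) and Dsg2 (0.87 and 0.18) were not called. A second Dsc2 probe gave 0.92 and -0.18. The other tested probes of Dsg2 had mean log2 ratios of -0.69, -0.14 and -0.15, opposite in sign to that of the brightest, so no direction was set for Dsg2. The cadherins of the differentiated epidermis, Dsc1, Dsg1a, Dsg1b, Dsg1c and Dsg4, were below background in all 4 channels. Dsc3 was well above background in RTOC of the E15.5 array alone. All 9 desmosomal cadherin genes lie together on chromosome 18, from 19960930 to 20604526 (GRCm38.p6), and 3 of them were tested.

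The partners of these junctions outside the members showed a mixed picture of the same kind. Of 11 listed genes of junctions and keratins, all tested, 1 was called higher and 5 were called lower, against 16.6% and 12% of all genes. The gene called higher was Krt5, the basal keratin (log2 ratios 2.64 and 3.16). Those called lower include its pairing partner Krt14 (-1.82 and -1.89) and plectin (Plec, -2.04 and -1.65), a linker of keratin to the membrane. Also called lower were E-cadherin (Cdh1, -1.01 and -1.55) and the catenins Ctnna1 (-1.55 and -0.74) and Ctnnd1 (-1.73 and -1.93). The catenin Ctnnb1 had positive ratios on both arrays (0.80 and 0.73) and was not called (limma adjusted p = 0.0715). Krt18 (0.99 and 0.38) was not called either. Nor were Krt8 and Cdh3, each positive at E14.5 and negative at E15.5. Perp, a membrane protein that desmosomes need, had 0.07 and 0.10.

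**Figure D2:**
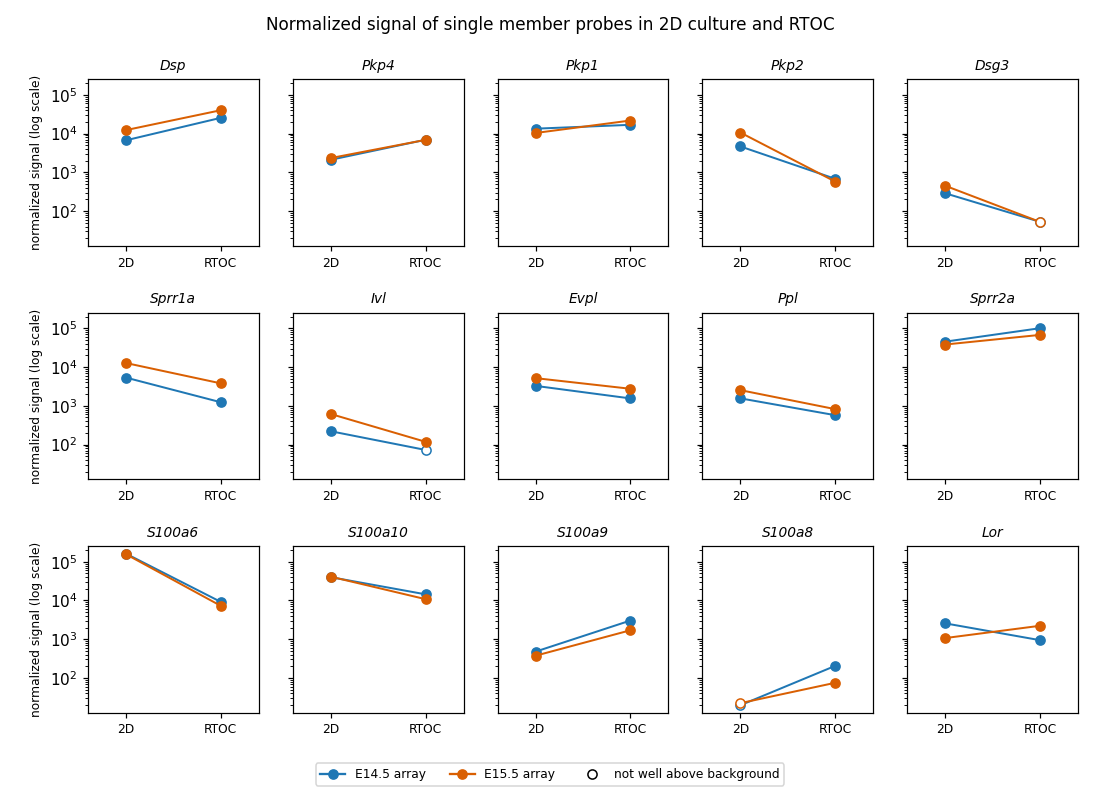
Normalized signal, on a logarithmic axis, of 15 members in 2D culture and in RTOC, 1 probe per gene. Lines join the cultures of an array (blue E14.5, orange E15.5), and open circles are signals not well above background. S100a6 drops from 162077 to 9201 on the E14.5 array and Dsp rises from 6725 to 25569.6, while the lines of Lor cross.

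The precursors of the cornified envelope were mostly lower in RTOC where they were called. Of 19 genes 13 were tested, 1 was called higher (7.69%, against 16.6% of all genes) and 5 were called lower (38.5%, against 12%), with a median of the mean log2 ratios of -0.52. Those called lower were the scaffold proteins involucrin (Ivl), envoplakin (Evpl) and periplakin (Ppl), and Sprr1a and Sprr2j. Sprr2a alone was called higher.

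At E14.5 the Sprr1a signal was 5349 in 2D culture and 1235 in RTOC, and at E15.5 it was 12722 and 3797. Both RTOC signals were below both 2D signals, and Sprr1a was 3.81-fold higher in 2D culture (mean log2 ratio -1.93, SE 0.26, limma adjusted p = 0.00626). Involucrin, the substrate on which the envelope is first crosslinked, had signals of 220 and 614 in 2D culture and of 72.4 and 117 in RTOC, the first of the RTOC signals not being well above background. Ivl was 3.99-fold higher in 2D culture (log2 ratios -1.61 and -2.39, limma adjusted p = 0.00839). With normexp and loess its mean was -0.55 and was not called (limma adjusted p = 0.11), so that the size of its change depended on the processing. That setting changed the background correction and the scaling together, and the part of each was not tested.

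Periplakin and envoplakin, plakins that form dimers with each other beneath the membrane, moved alike. Ppl had 1556 and 2535 in 2D culture against 572 and 820 in RTOC (log2 ratios -1.44 and -1.63, limma adjusted p = 0.011). Evpl had 3267 and 5178 in 2D culture against 1551 and 2751 in RTOC (log2 ratios -1.07 and -0.91, limma adjusted p = 0.0371), and its other probe had a mean of -1.59 and was also called. Desmoplakin belongs to the same protein family as both and moved the opposite way.

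Among the Sprr2 genes, near copies that lie in a row, 7 of 9 were tested. Sprr2a had signals of 45314 and 38189 in 2D culture and of 100885 and 67741 in RTOC (mean log2 ratio 0.99, SE 0.26, limma adjusted p = 0.0403). A second Sprr2a probe gave 0.55 and -1.84 and was not called, so the direction of Sprr2a rests on the brighter probe. Sprr2j, which the annotation lists as the pseudogene Sprr2j-ps, had log2 ratios of -0.82 and -1.38 (limma adjusted p = 0.0362), and was not called with normexp and loess (limma adjusted p = 0.0627). Sprr2g had -0.77 and -0.27 and Sprr2k had -0.11 and -0.44, and neither was called. The probes of Sprr2b, Sprr2e, Sprr2j and Sprr2k share runs of 15 to 28 identical bases with at least 1 other of the 4, so signal could be split or shared between these genes, and their values are uncertain one by one. When the arrays were fitted without a replicate block, that is with the 4 channels as separate samples, the calls of Evpl, Ivl, Sprr1a, Sprr2a and Sprr2j were lost and the other 10 were kept.

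Loricrin (Lor), the main protein of the mature epidermal envelope, had opposite signs on the arrays. At E14.5 its signal was 2569 in 2D culture and 945 in RTOC, and at E15.5 it was 1072 and 2225, all well above background. Filaggrin (Flg), which bundles keratin, was well above background in RTOC of the E15.5 array alone, with a signal of 212 there and of 16.6 to 21.9 in the other channels. Lce5a had signals between 101 and 143 and log2 ratios of -0.46 and 0.18. Sprr1b, Sprr2d, Sprr2f, Sprr3 and Sprr4 were not tested.

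The genes that act on the envelope were followed through a list of 21, of which 13 were tested. Of these 5 were called higher and 4 were called lower. Over all genes tested 16.6% were called higher and 12% lower, against which every count of calls in this paragraph stands. Those called lower include Tgm1, the membrane-bound transglutaminase that crosslinks involucrin (log2 ratios -0.95 and -1.96), Casp14, a protease of the granular layer (-2.46 and -2.45, not well above background in RTOC at E14.5), Abca12, the lipid transporter of lamellar granules, which was not well above background in RTOC on either array (at least 2.19-fold lower), and Cst6, a cystatin of the epidermis (-2.34 and -1.85). Those called higher were Spink5, the inhibitor of the proteases that shed corneocytes (2.85 and 4.24), Krtdap (2.85 and 2.93, not well above background in 2D culture at E15.5), Sbsn (0.95 and 1.97), Asprv1, a protease that processes filaggrin (at least 2.15-fold), and Calm4, a calmodulin-like protein of the epidermis (at least 1.47-fold), the last 2 not being well above background in 2D culture on either array. Among 18 listed regulators of stratified epithelium, 16 were tested, 9 were called higher and 1 was called lower. Trp63, the regulator of the basal state, had 4.15 and 3.24, Elf5, dim in 2D culture on both arrays, was at least 2.11-fold higher, and Grhl1, a regulator of desmosomal cadherins, had 3.1 and 2.35, whereas Klf4, a factor of barrier formation, had -3.06 and -1.13. Of 6 tested keratins of suprabasal keratinocytes, Krt10 was called higher (0.99 and 1.27) and Krt6a lower (-0.997 and -1.59). Of 7 tested markers of medullary thymic epithelium, Aire, Fezf2 (both dim in 2D culture on both arrays) and Tnfrsf11a were called higher, and Cd80, Cldn3, Cldn4 and Krt14 lower.

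The S100a proteins, small calcium-binding proteins, changed in both directions, and held the largest fall by mean ratio of the tested members, that of S100a6. Of 13 genes 11 were tested, and the median of their mean log2 ratios was 0.57. Called higher were 2 (18.2%, against 16.6% of all genes), and called lower were 2 (18.2%, against 12%). S100a6 (calcyclin) fell from 162077 to 9201 on the E14.5 array and from 156663 to 7288 on the E15.5 array, 19.5-fold (mean log2 ratio -4.28, SE 0.26, limma adjusted p = 0.0016). S100a10, the partner of annexin A2, had signals of 40028 and 41189 in 2D culture against 14426 and 10819.9 in RTOC (mean log2 ratio -1.70, SE 0.27, limma adjusted p = 0.00968). The signals of these genes in a given culture were close on the arrays, and the cultures did not overlap.

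S100a8 and S100a9, which pair to form calprotectin, a protein of neutrophils, some macrophages and stressed keratinocytes, were both called higher. S100a9 went from 479 to 3037 (E14.5) and from 376 to 1705 (E15.5), 5.36-fold (mean log2 ratio 2.42, SE 0.27, limma adjusted p = 0.00377). S100a8 had 19.8 and 22.4 in 2D culture, not well above background on either array, and reached 205 and 75.1 in RTOC, so it was at least 1.18-fold higher there (limma adjusted p = 0.0115). With normexp and loess S100a8 had a mean of 0.34 and was not called, whereas S100a9 had 1.71 and was called (limma adjusted p = 0.0276).

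Markers of cells that also make calprotectin were measured beside them. Of 12 granulocyte markers with a probe, 4 were tested and 0 were called by limma, against 16.6% of all genes called higher and 12% lower. Ctsg, Chil3 and Mmp8 had the lowest limma adjusted p-values (0.0566, 0.0579 and 0.06). Their directions differed, with mean log2 ratios of -0.95, 0.91 and -2.01, and Mpo had 0.32. Another 4 (Elane, Ngp, Cxcr2 and Retnlg) were not well above background in any channel. The summed signal of the granulocyte list was 656 in 2D culture and 611 in RTOC at E14.5, and 1083 and 1067 at E15.5. Of 9 tested macrophage markers 4 were called higher (Adgre1, Csf1r, Lyz2 and C1qb) and 0 lower, against 16.6% and 12% of all genes. The 5 not called were Cd68, Cd14 and C1qa, positive on both arrays, Itgam (-0.30 and -0.92) and Mrc1 (-0.40 and 1.58). The median log2 ratio of the 9 was 0.41 (E14.5) and 0.96 (E15.5). The summed signal of that list was 2.34 times and 3.56 times as high in RTOC, Lyz2 alone making up 71.2% to 78.3% of it. Ptprc, the pan-leukocyte gene, was also called higher (1.97 and 1.80). The part of macrophages in the S100a8 and S100a9 values was not tested.

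The remaining S100a genes were not called. S100a13 had log2 ratios of 1.21 and 0.53, S100a3 had 0.81 and 0.42, S100a1 had 1.44 and 0.05, and S100a11, a transglutaminase substrate, had -0.53 and -1.03. S100a14, S100a16 and S100a4 had opposite signs on the arrays. S100a4, a gene often used to mark fibroblasts, had signals of 11520 and 5349 in 2D culture and of 13151 and 4348 in RTOC, so that it differed more between the arrays than between the cultures. The fibroblast list was mixed, with 3 of 9 genes called higher and 4 lower, against 16.6% and 12% of all genes. S100a5 and S100a15 (S100a7a in the annotation) were not tested.

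On chromosome 3 (GRCm38.p6), 30 of the 55 members lie between 90511034 and 93564645, a region known as the epidermal differentiation complex. Of these 30 genes 22 were tested. The 3 called higher (13.6%) stand against 16.6% of all genes, the 5 called lower (22.7%) against 12%, and the 8 of opposite sign on the arrays (36.4%) against 20.1%. Genes near each other moved alike in some cases and in opposite directions in others. S100a8 and S100a9, direct neighbours among the members, were both called higher, and Sprr1a and Ivl were both called lower. S100a6 starts at 90612894 and S100a9, called the other way, at 90692630, and Sprr2a (92215835 to 92222491) and Sprr1a (92483954 to 92485881) lie in the same Sprr row.

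**Figure D3:**
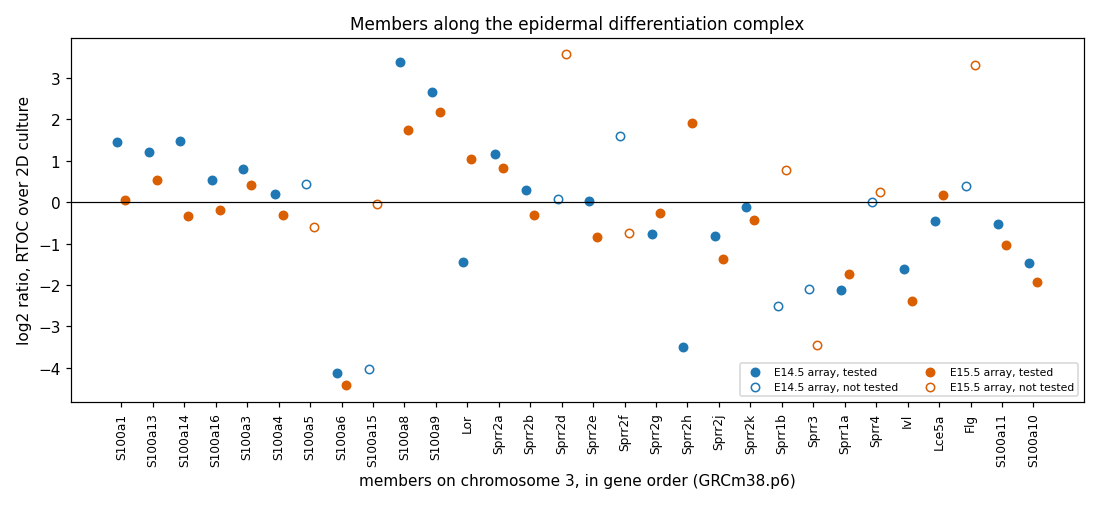
Log2 ratios, RTOC over 2D culture, of the 30 members on chromosome 3 in the order of their genes. Blue is the E14.5 array and orange the E15.5 array, and open circles are genes that were not tested. S100a6 lies at -4.14 and -4.43, a few places from S100a8 (dim in 2D culture) and S100a9 at 1.75 to 3.38, and Sprr1a and Ivl lie below 0 on both arrays.

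The 250 bases before the start of Sprr1a, Sprr2a, S100a6 and S100a9 are shown, since these 4 stand for both directions of change within a complex. They were taken from RefSeq on GRCm38.p6 and are written 5′ to 3′ on the strand of the gene, in lower case. Capitals mark matches on either strand to 3 motifs. The letters TGANTCA were searched for AP-1. For C/EBP the letters were TTNNGNAA. For the TATA box they were TATAAA.
Sprr1a (lower in RTOC, chr3:92485882-92486131, minus strand): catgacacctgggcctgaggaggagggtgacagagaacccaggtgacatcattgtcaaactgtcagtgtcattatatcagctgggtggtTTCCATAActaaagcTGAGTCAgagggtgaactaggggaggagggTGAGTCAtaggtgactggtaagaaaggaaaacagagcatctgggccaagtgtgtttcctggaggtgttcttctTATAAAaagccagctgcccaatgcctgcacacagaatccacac
Sprr2a1 (the annotation's name for Sprr2a, higher in RTOC, chr3:92215585-92215834, plus strand): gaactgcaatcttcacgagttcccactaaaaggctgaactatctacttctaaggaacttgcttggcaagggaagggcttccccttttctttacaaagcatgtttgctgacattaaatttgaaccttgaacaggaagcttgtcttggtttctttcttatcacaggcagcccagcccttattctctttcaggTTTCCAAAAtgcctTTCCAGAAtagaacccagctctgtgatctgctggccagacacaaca
S100a6 (lower in RTOC, chr3:90612644-90612893, plus strand): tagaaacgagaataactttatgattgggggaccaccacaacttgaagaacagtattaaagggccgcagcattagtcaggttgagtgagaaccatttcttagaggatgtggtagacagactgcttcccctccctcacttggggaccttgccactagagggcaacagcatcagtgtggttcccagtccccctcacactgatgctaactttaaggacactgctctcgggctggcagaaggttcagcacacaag
S100a9 (higher in RTOC, chr3:90695722-90695971, minus strand): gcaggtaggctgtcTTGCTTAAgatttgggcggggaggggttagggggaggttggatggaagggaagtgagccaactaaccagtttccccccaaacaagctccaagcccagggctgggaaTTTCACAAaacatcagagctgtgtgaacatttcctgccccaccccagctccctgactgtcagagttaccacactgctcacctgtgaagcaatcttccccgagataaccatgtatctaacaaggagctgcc

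The Sprr1a stretch held 2 AP-1 matches, 1 C/EBP match and a TATA box, that of Sprr2a1 held 3 C/EBP matches, some of which overlap, that of S100a9 held 2 C/EBP matches, and that of S100a6 held none of the 3 motifs. Of the 55 members, 36 were matched to 41 promoters. An AP-1 match was found in 13 of the 41 (31.7%), against 6.75% of all 32851 promoters, a TATA box in 16 (39.0%, against 12.4%), and a C/EBP match in 19 (46.3%, against 36.8%). Of 11 Sprr promoters 8 held an AP-1 match and 9 a TATA box, and of 15 S100a promoters 2 and 3 did. The 4 desmosome promoters, of Pkp4, Dsp and Jup alone, held neither, and are too few to compare with the Sprr promoters. The Sprr genes are tandem copies, so their promoters are not independent of each other, and a match of letters is no proof of a site.

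The stefins, inhibitors of lysosomal cysteine proteases, of which the human homologue is built into the envelope, differed most between the arrays. The 6 genes lie in a row on chromosome 16, from 36119946 to 36455392, and 4 were tested. Stfa3 alone was called. Its signal was 73.3 and 25.4 in 2D culture, not well above background on either array, and 278 and 181 in RTOC, given as at least 1.33-fold higher (limma adjusted p = 0.00593). As for Dsg3, this bound is the fold after normexp and loess (mean log2 ratio 0.41), where Stfa3 was not called. The other tested stefins each had a positive ratio at E14.5 and a negative ratio at E15.5. The 2010005H15Rik gene (Csta2 in the annotation) had signals of 215 in 2D culture and 687 in RTOC at E14.5, and of 1015 and 256 at E15.5. Stfa1 (Cstdc6 in the annotation) had 321 and 1285, then 590 and 397. Stfa2l1 had 35.7 and 112, then 82.4 and 25.2, and was well above background only in the higher culture of each array. All 3 probes of Stfa1 had this change of sign, with log2 ratios of 1.96 to 2.82 on the E14.5 array and of -0.29 to -0.57 on the E15.5 array. The 2.82 is of a probe that was dim, not well above background, in 2D culture of that array. The Stfa1 probes share runs of 19 to 45 bases with each other and up to 25 with that of 2010005H15Rik, so they do not give separate measurements.

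Stratifin (Sfn), an adaptor protein of keratinocytes that leave the cell cycle, had signals of 17359 and 23160 in 2D culture and of 12286 and 13913 in RTOC. The brightest probe was not called (mean log2 ratio -0.62, limma adjusted p = 0.124), while its other probes, with means of -1.13 and -1.15, were both called lower (limma adjusted p = 0.0336 and 0.0351). All 3 probes lay below 0 on both arrays. Cstad had log2 ratios of 0.40 and -0.28 and was not called.

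In all, 12 of the 39 tested members (30.8%) had opposite signs on the arrays, against 20.1% of all genes tested. Of the 12, 9 had the positive ratio at E14.5 and the negative one at E15.5, and 3 (Lor, Sprr2h and Lce5a) were the other way. By its brightest probe no desmosome gene was among them. Several of the 12 were close to 0 on both arrays, such as S100a4, Sprr2b and Cstad, whereas Lor, Sprr2h, 2010005H15Rik and Stfa2l1 were beyond 2-fold both ways. Sprr2h was well above background in only 1 culture of each array, 2D culture at E14.5 (187) and RTOC at E15.5 (86.9).

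The ratio was lower on the E15.5 array than on the E14.5 array for 31 of the 39 members (79.5%), against 50.8% of all genes tested. This held for all 11 tested S100a genes (10 of 11 with median centring) and for 8 of the 9 desmosome genes, and for 7 of the 13 envelope precursors. With median centring, which placed all genes differently on the arrays, it was 24 of 39 (61.5%, against 34.4% of all genes), and with normexp and loess 32 of 39 (82.1%, against 53.1%). Across the 39 members the arrays correlated with Pearson's r = 0.62 and Spearman's rho = 0.57, and across all 16133 genes with 0.83 and 0.79. These are descriptions across genes, which share the slide, the dyes and the cells and are not independent. Of 8 general epithelial markers, 1 was called higher (Krt5) and 4 were called lower (Cdh1, Krt14, Cldn3 and Cldn4), against 16.6% and 12% of all genes. The median log2 ratio of the 8 was -0.78 at E14.5 and -1.21 at E15.5. Their summed signal, of which Krt8 made up 38.4% to 56.4%, was 2.01 times (E14.5) and 1.08 times (E15.5) as high in RTOC. The median of the 6 tested suprabasal keratinocyte markers was 0.10 and -0.48, and their summed signal, of which Krt17 made up 87.1% to 89.4%, was 1.15 and 0.519 times as high in RTOC. Whether these shifts bear on the members was not tested, and with 1 array per stage the difference between the arrays has no test.

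**Figure D4:**
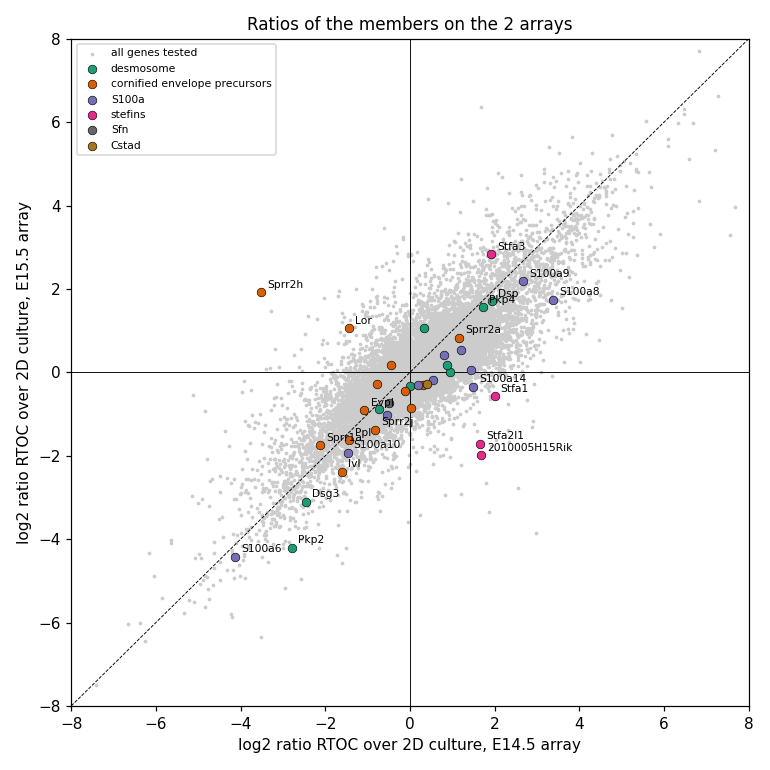
Log2 ratio, RTOC over 2D culture, on the E14.5 array (horizontal) and on the E15.5 array (vertical), for all 16133 genes tested (grey) and for the 39 tested members (coloured by role). The dashed line marks equal ratios. Of the 39 members 31 lie below it, and the stefins 2010005H15Rik and Stfa2l1 and the envelope genes Lor and Sprr2h lie farthest into the quadrants of opposite sign.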

How the data were processed

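The members and the gene lists were chosen with earlier results of these data known. The authors labelled RTOC RNA with Cy5 and 2D culture RNA with Cy3 and ran Feature Extraction (11.5.1.1 per the submitters' processing notes, 9.1.3.1 per the file headers). The deposited scanner files hold the mean signal, local background and processed signal of each spot as an intensity, the last after background subtraction and dye normalization. The deposited series values are log10 ratios of the processed signals (largest difference 5.0e-10) and were used only for the alternative without quantile normalization.

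Control spots and outlier-flagged spots (5 at E14.5, 1 at E15.5) were removed, the processed signals of all 4 channels were quantile normalized, as the methods state, and the log2 ratio was averaged over the spots of a probe. Names came from RefSeq (GRCm38.p6) by accession (22951 probes), symbol (6659) or older symbol (3109), and 8455 probes kept the name in the files. The 23681 probes that passed the background filter were fitted in limma 3.58.1 (R 4.3.3; intercept, eBayes, two-sided, Benjamini-Hochberg, threshold 0.05), with 1 residual degree of freedom, after tests of the steps on simulated data. The brightest tested probe stands for a gene. Named with their fit were members that passed the threshold or were well above background in all 4 channels. A gene dim in 1 culture on both arrays was given as a bound where that exceeded 1, and other probes where they differed in sign or by over 1. The values of other dim genes, and the promoters shown, were picked after the values were seen. Alternatives changed the background correction (normexp, offset 50), scaling, filter, fit, probe or arrays used. The count of lower ratios on the E15.5 array was added after the values were seen. With 2 arrays no exact sign-flip p can be below 0.5.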

Additional observations from a re-analysis of the deposited data

Results flagged for a closer look

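The ratio of RTOC over 2D culture had opposite signs on the arrays for 12 tested members, and with 1 array per stage the difference was not tested. Positive at E14.5 and negative at E15.5 were 2010005H15Rik (log2 ratios 1.68 and -1.99), Stfa2l1 (1.66 and -1.71), Stfa1 (2.00 and -0.57), S100a14 (1.48 and -0.35), S100a16 (0.53 and -0.18), S100a4 (0.19 and -0.30), Sprr2b (0.30 and -0.31), Sprr2e (0.022 and -0.85) and Cstad (0.40 and -0.28). The other way were Sprr2h (-3.51 and 1.92), Lor (-1.44 and 1.05) and Lce5a (-0.46 and 0.18). Stfa2l1 and Sprr2h were well above background in only 1 culture of each array.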

How the results depend on the processing

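Main counts were 6 members called higher, 9 called lower, 5 and 7 at least 2-fold higher and lower on both arrays, and 12 of opposite sign. Called higher and lower were 0 and 0 with no filter on dim probes and with the methods' t-test once adjusted by Benjamini-Hochberg, and 2 and 2 with that t-test unadjusted. Called lower were 5 with no replicate block and 5 with normexp and median centring, a scaling that placed the median log2 ratio of all tested probes at 0.12. Of the 15 calls, 10 were kept with normexp and loess (Dsg3, Ivl, S100a8, Sprr2j and Stfa3 lost), 9 with median centring (Evpl also lost), 14 with eBayes trend and robust fitting (Sprr2a lost), 11 with both channels well above background (4 not tested), 14 with the median of all of a gene's probes, and 15 without quantile normalization and with outlier-flagged spots kept. At least 2-fold higher on both arrays were 3 with both channels required and with normexp and loess, with or without Aquantile, and at least 2-fold lower were 4 with normexp and loess, with or without Aquantile, and with median centring. Opposite signs rose to 20 of 55 genes with no filter, a setting that admits the 16 members too dim to be tested otherwise. The counts in this paragraph are given without shares over all genes. They describe the processing and are no result about the members. With 1 array left out, which leaves no test, 8 to 12 members were at least 2-fold higher and 10 to 11 at least 2-fold lower. No call changed direction under any of these settings. The causes were not tested, beyond the fewer or more genes that a filter admits. Signal over background limits Dsg3, S100a8 and Stfa3, dim in 1 culture on both arrays, and Ivl, Sprr2h and Stfa2l1, dim in some channels. The block here is the array, which pairs its channels.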
